A study of Arabidopsis thaliana with 24 samples.

Results

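Histone H2B is encoded in Arabidopsis thaliana by a gene family, and 10 of its genes were followed here: AT1G08170, a seed H2B gene, and the 9 genes AT1G07790 (HTB1), AT5G22880 (HTB2), AT2G28720, AT5G59910 (HTB4), AT3G45980 (HTB9), AT3G46030 (HTB11), AT2G37470, AT3G53650 and AT3G09480. They are 10 of the 33597 loci in the count table. AT1G08170 was chosen by its lower counts in the desiccation-intolerant mutants, and the other 9 were listed beside it as H2B genes. Its levels in those mutants are therefore a description and carry no test, and the same holds for the other members in that contrast. Seeds were sequenced at 15, 17 and 21 days after flowering (DAF) in 8 genotypes. The intolerant mutants were lec1-1 in the Wassilewskija (Ws) ecotype, abi3-5 in Landsberg erecta (Ler) and fus3-3 in Columbia 0 (Col-0). The tolerant mutants were lec2-1 in Ws and abi3-1, a weak allele, in Ler, and each wild type, Ws, Ler or Col-0, was the reference for the mutants in its background. The sample labels call abi3-1 intolerant and the series design calls it tolerant; the design was followed.

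Each genotype and day was 1 library of RNA pooled before amplification. In contrasts of genotypes the days are therefore the repeats of a genotype. In contrasts of days the only repeats are the genotypes of a group, Ws and Ler or lec1-1 and abi3-5. The p-values measure the spread between those libraries. The lec2-1 libraries of 15 and 17 DAF held the same values at every locus and were counted once, which left 23 distinct libraries with totals of 1670355 to 6531673 counts. In Col-0, the libraries whose labels give 17 and 21 DAF did not follow the other wild types: across genes, the one labelled 17 DAF had a Pearson r of 0.911 with Ler at 21 DAF and 0.646 with Ler at 17 DAF. LEC1 and LEC2 were at or near 0 in every library, the wild types included, and so do not check the labels of lec1-1 and lec2-1. ABI3 transcript remained in abi3-5 at 21.9 to 57.7 CPM, against 52.9 to 138 CPM in Ler, and FUS3 in fus3-3 at 0.81 to 18.2 CPM, against 0 to 22.0 CPM in Col-0. In whole seeds, fewer cells of a type and less RNA per cell cannot be told apart.

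H2B pairs with H2A, and pairs of both join H3 and H4 in the nucleosome, the spool on which DNA is wound. Most histone genes are transcribed mainly while DNA is replicated, whereas variant genes can be transcribed outside that phase. Seeds late in maturation stop dividing, load storage and protective proteins and dry, and LEC1, LEC2, FUS3 and ABI3 are transcription factors that direct this programme.

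All 10 genes have 1 exon in the RefSeq annotation of TAIR10.1, whereas the counts were made against TAIR10 per the submitters' processing notes. AT1G08170 lies at chr1:2562769-2563706 on the minus strand and has a coding length of 732 bases, against 381 to 456 bases in the other 9. Aligned coding sequences of AT1G08170 were 68.7 to 73.8% identical to those of the other 9 (median 71.5%), whereas the 36 pairs among the other 9 were 77.3 to 93.2% identical (median 83.0%). The stretch below is shown because it sets the seed gene beside HTB4, the H2B gene with the most counts; capitals mark the bases that are the same in both, 63 of 90.
AT1G08170 chr1:2563115-2563204 (minus strand, coding bases 469 to 558): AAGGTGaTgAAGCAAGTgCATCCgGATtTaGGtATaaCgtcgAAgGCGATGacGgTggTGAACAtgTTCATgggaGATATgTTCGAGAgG
HTB4 chr5:24127410-24127499 (plus strand, coding bases 205 to 294): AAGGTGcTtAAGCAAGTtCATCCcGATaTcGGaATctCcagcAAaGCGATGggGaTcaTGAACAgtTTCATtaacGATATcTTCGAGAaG
Near-identical copies can split or share reads. None of the 904 windows of 35 bases in the AT1G08170 transcript occurs elsewhere in the genome, against 11.5% of those in HTB9 and 9.80% in HTB11, which are 93.2% identical to each other, and at most 1.45% in the other members. Values of HTB9 and HTB11 are therefore less certain than those of AT1G08170.

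The 300 bases before the annotated start are shown for AT1G08170 because the regulators mutated here act with factors that bind such DNA. Capitals mark CACGTG, the G-box, whose first base lies 72 bases before the start; it holds ACGTG, the core of the abscisic acid response element, on both strands.
AT1G08170 chr1:2563707-2564006 (minus strand): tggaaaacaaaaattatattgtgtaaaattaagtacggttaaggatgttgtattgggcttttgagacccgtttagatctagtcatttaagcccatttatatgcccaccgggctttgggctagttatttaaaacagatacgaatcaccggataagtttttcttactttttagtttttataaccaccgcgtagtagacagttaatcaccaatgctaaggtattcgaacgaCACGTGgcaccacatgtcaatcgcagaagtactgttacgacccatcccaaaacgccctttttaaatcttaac
Matches were searched on both strands. The letters CATGCA (the RY element), ACGTCA (the Hex element of histone promoters) and CGCGGATC (the octamer of histone promoters) were not found in this window. Among 27443 windows of the same length, 7.09% held CACGTG, 25.6% ACGTG, 10.3% CATGCA, 8.72% ACGTCA and 0.149% CGCGGATC. No member held CATGCA or CGCGGATC.

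Most other members held different letters in their windows. Of the 9, 7 held CACGTCA, in which ACGTCA overlaps ACGTG read on the other strand, against 3.16% of all windows; HTB4 and AT3G09480 held none. In 6 of these 7 the match was followed after 3 bases by ATCC, an arrangement found in 19 of the 27443 windows (0.0692%). Both longer searches were chosen after the first matches were seen, and a match is a description of letters. Capitals mark CACGTCA in the stretches below, which start 10 bases before it.
HTB1 chr1:2412896-2412932 (plus strand): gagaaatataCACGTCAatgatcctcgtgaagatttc
AT2G28720 chr2:12326747-12326783 (plus strand): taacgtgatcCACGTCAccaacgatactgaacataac
AT2G37470 chr2:15736668-15736704 (plus strand): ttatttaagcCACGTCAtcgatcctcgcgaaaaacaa
HTB9 chr3:16898144-16898180 (minus strand): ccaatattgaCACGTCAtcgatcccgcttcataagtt
HTB11 chr3:16914194-16914230 (minus strand): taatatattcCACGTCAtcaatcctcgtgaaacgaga
AT3G53650 chr3:19889190-19889226 (plus strand): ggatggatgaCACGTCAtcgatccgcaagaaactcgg
HTB2 chr5:7652884-7652920 (minus strand): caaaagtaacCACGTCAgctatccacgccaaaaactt

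AT1G08170 transcript climbed steeply through late maturation in Ws and Ler seeds and stayed low in each intolerant mutant. In lec1-1 it was at 0.445, 1.78 and 12.1 CPM (counts relative to library size after TMM scaling) at 15, 17 and 21 DAF, against 11.1, 57.8 and 347 CPM in Ws. In abi3-5 it was at 0, 0.229 and 0.632 CPM, against 4.33, 33.4 and 172 CPM in Ler. The abi3-5 values rest on 0, 1 and 3 counts, and the 0 at 15 DAF allows up to 0.852 CPM, the level of 3 counts.

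In fus3-3 the gene was at 0.434, 3.29 and 18.2 CPM, against 2.50, 312 and 51.1 CPM in Col-0 as labelled. In Col-0 the days labelled 17 and 21 DAF thus run against the order of the other wild types. The tolerant mutants had clearly detected transcript on each day. In lec2-1 it was at 37.0 CPM in the library deposited for both 15 and 17 DAF and at 76.4 CPM at 21 DAF. In abi3-1 it was at 3.51, 39.8 and 177 CPM, close to Ler on each day.

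On every day the 3 intolerant mutants lay below all tolerant libraries. Their highest values were 0.445, 3.29 and 18.2 CPM at 15, 17 and 21 DAF, against lowest values of 2.50, 33.4 and 51.1 CPM in the tolerant genotypes. The rule chose the gene by this difference, so the gap within a day is a description. At 15 DAF it rests on 3, 0 and 4 counts in lec1-1, abi3-5 and fus3-3, against 5 counts in Col-0. Across days the groups overlap, since lec1-1 and fus3-3 at 21 DAF exceeded the wild types at 15 DAF.

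**Figure D1:**
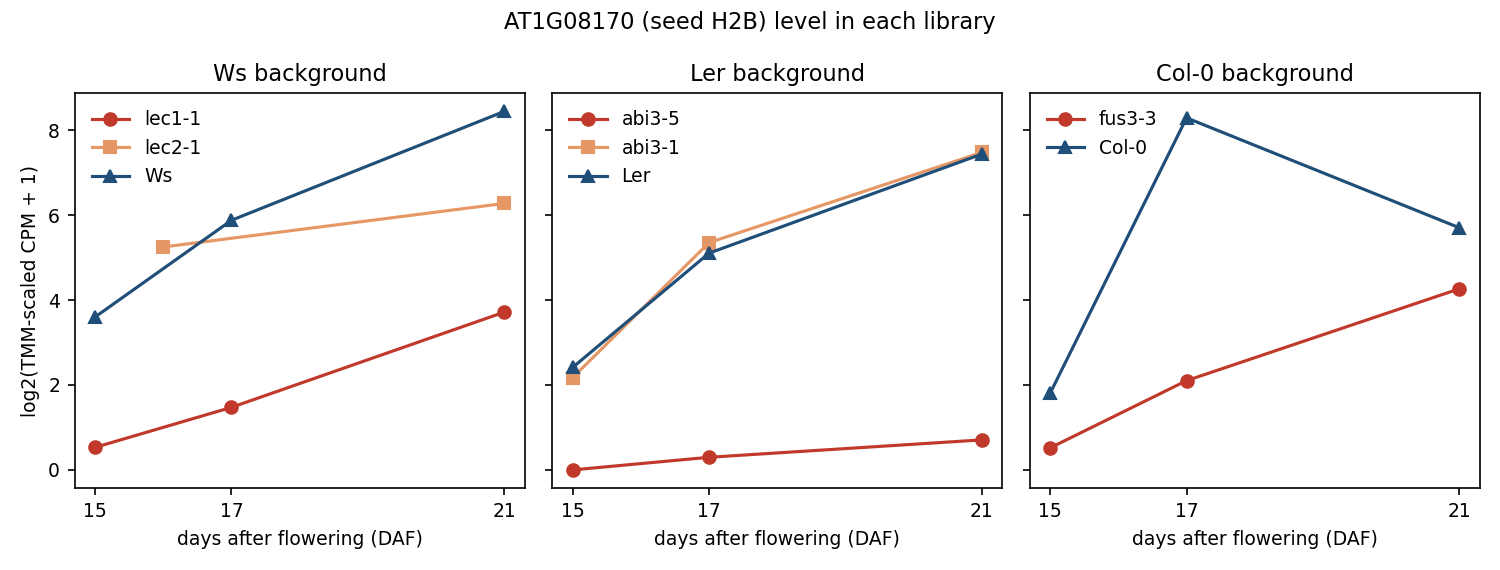
AT1G08170 level as log2(TMM-scaled CPM + 1), 1 point per library, against days after flowering, with 1 panel per ecotype. The lec2-1 library deposited for 15 and 17 DAF is drawn between those days. The red intolerant mutants lie lowest on each day, abi3-5 at most at 0.632 CPM.

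Pooled over days, the count rate of AT1G08170 was 49.0-fold lower in lec1-1 than in Ws (95% interval 38.2 to 64.0, counting error only). It was 218-fold lower in abi3-5 than in Ler (84.4 to 804), resting on 4 counts, and 20.2-fold lower in fus3-3 than in Col-0 (16.7 to 24.7). The Col-0 library labelled 17 DAF held 505 of the 621 Col-0 counts. By labelled day, fus3-3 was 5.77-fold lower at 15 DAF (4 against 5 counts), 94.7-fold at 17 DAF and 2.80-fold at 21 DAF. The pooled interval does not hold this spread. Against the tolerant mutants the count rate of AT1G08170 was 15.1-fold lower in lec1-1 than in lec2-1 (11.6 to 19.9). In abi3-5 it was 212-fold lower than in abi3-1 (82.0 to 782). On 21 DAF alone, which both genotypes have as a library of its own, lec1-1 was 6.30-fold below lec2-1. The fitted log2 difference of lec1-1 from lec2-1 was -4.37, against -5.71 and -3.16 with the doubled library placed at 15 or at 17 DAF, and -5.26 to -2.88 with single libraries left out. The edgeR fit, which weighs days alike, gave log2 fold changes of -4.84 (SE 0.92) for lec1-1, -7.60 (SE 1.22) for abi3-5 and -4.56 (SE 0.92) for fus3-3 against their wild types. Leaving out Col-0 at both of those days gave -2.17 for fus3-3.

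Because these values chose the gene, no p-value is given for them, and tests are reported for the other comparisons. In lec2-1 against Ws, AT1G08170 had a log2 fold change of -0.47 (SE 0.87; edgeR quasi-likelihood test, adjusted p = 0.976), with an interval of 2 SE from -2.21 to 1.27. The sign depends on the day given to the doubled lec2-1 library, whose 37.0 CPM stand against 11.1 CPM in Ws at 15 DAF and 57.8 CPM in Ws at 17 DAF. Placed at 15 DAF alone it gave a log2 value of 0.91 (adjusted p = 0.973), and placed at 17 DAF alone it gave -1.72 (adjusted p = 0.525). At 21 DAF, lec2-1 was at 76.4 CPM, against 347 CPM in Ws. In abi3-1 against Ler the log2 fold change was 0.01 (SE 0.89; edgeR, adjusted p = 1), with an interval of 2 SE from -1.78 to 1.80. These intervals are wide, and the tests do not show that the tolerant mutants equal their wild types.

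Within the H2B family, AT1G08170 was a minor transcript at 15 DAF in every wild type and the leading one per kilobase at 21 DAF in Ws and Ler. Of the counts of the 10 genes it took 0.110, 0.563 and 6.54% in lec1-1 at 15, 17 and 21 DAF, against 2.92, 12.9 and 63.0% in Ws (exact 95% binomial interval at 21 DAF 4.94 to 8.47% in lec1-1 and 60.9 to 65.2% in Ws). It took 0, 0.0721 and 0.376% in abi3-5, against 1.08, 6.53 and 28.1% in Ler. The 0 of 1453 counts allows a share of up to 0.254% by the exact interval.

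In fus3-3 the share was 0.254, 0.790 and 5.94%, against 0.661, 46.5 and 16.2% in Col-0 as labelled. It was 12.4 and 24.5% in the distinct libraries of lec2-1, and 0.996, 9.50 and 38.2% in abi3-1. Per kilobase of transcript, AT1G08170 ranked first of the 10 genes at 21 DAF in lec2-1, abi3-1, Ws and Ler, and in the Col-0 library labelled 17 DAF. Per kilobase it reached 370 CPM per kb in Ws, whereas HTB4, the highest of the rest, ranged from 56.7 to 220 CPM per kb over all libraries. In lec2-1 at 21 DAF AT1G08170 was at 81.5 and HTB4 at 78.5 CPM per kb. Before division by length the order there was reversed, with AT1G08170 at 76.4 and HTB4 at 101 CPM. In Ler at 21 DAF they were at 172 and 170 CPM. Whether counts scale with transcript length in these libraries was not tested. In abi3-5 AT1G08170 and AT3G53650 tied for last at 0 at 15 DAF. At 17 and 21 DAF AT1G08170 ranked ninth of 10, on 1 against 0 and 3 against 2 counts of AT3G53650.

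**Figure D2:**
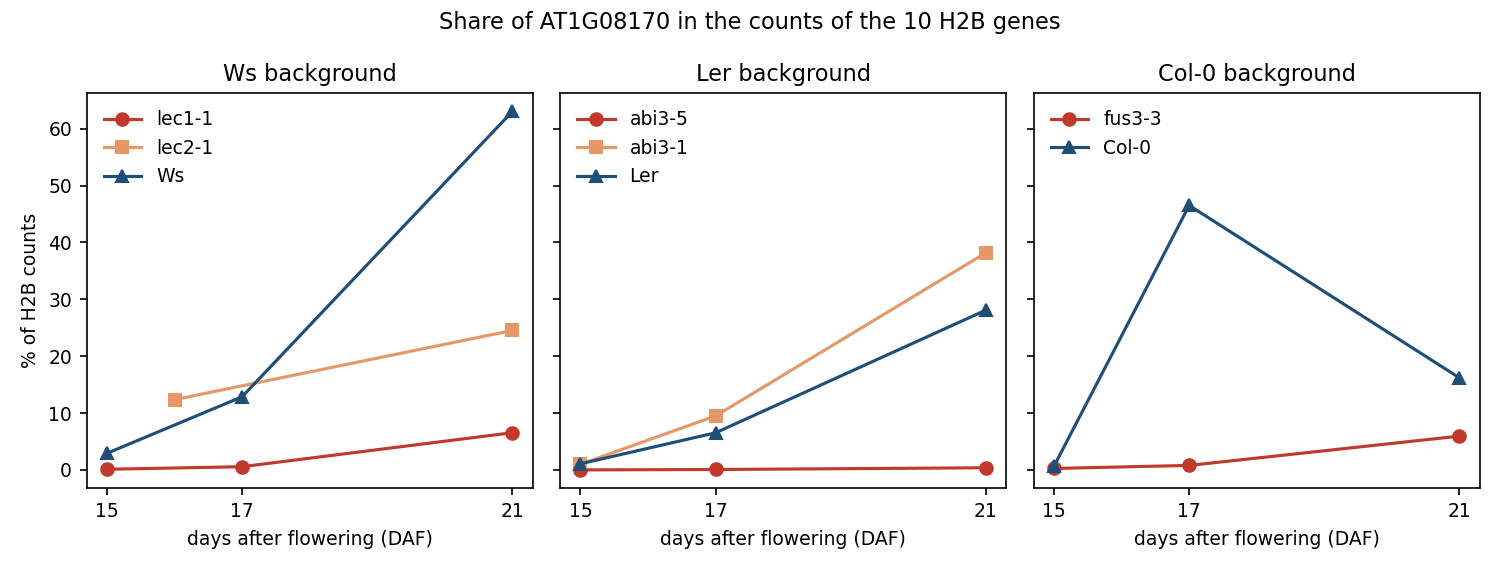
Share of AT1G08170 in the counts of the 10 H2B genes (%), 1 point per library, against days after flowering, by ecotype. The lec2-1 library deposited for 15 and 17 DAF is drawn between those days. The share reached 63.0% in Ws at 21 DAF and stayed at or below 6.54% in the 3 intolerant mutants.

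The other 9 genes covered a wide range of levels and were mostly present in every library. HTB4 ranged from 72.9 to 283 CPM, HTB11 from 20.8 to 107, HTB9 from 9.67 to 65.1, AT2G28720 from 3.79 to 82.5 and HTB2 from 3.04 to 59.0 CPM. AT2G37470 ranged from 4.21 to 33.3, HTB1 from 3.68 to 14.7 and AT3G09480 from 0.542 to 10.4 CPM. AT3G53650 had 14 counts in all and 0 in 15 of 23 libraries, so it did not pass the filter on low counts, and 9 of the 10 members were tested.

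Per kilobase the order by median was HTB4 at 137, HTB11 at 60.9, HTB9 at 36.9, AT2G28720 at 20.4, HTB2 at 16.3, AT1G08170 at 12.9, AT2G37470 at 11.7, HTB1 at 8.07 and AT3G09480 at 2.36 CPM per kb. Neighbours in this order overlap in their ranges over libraries.

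**Figure D3:**
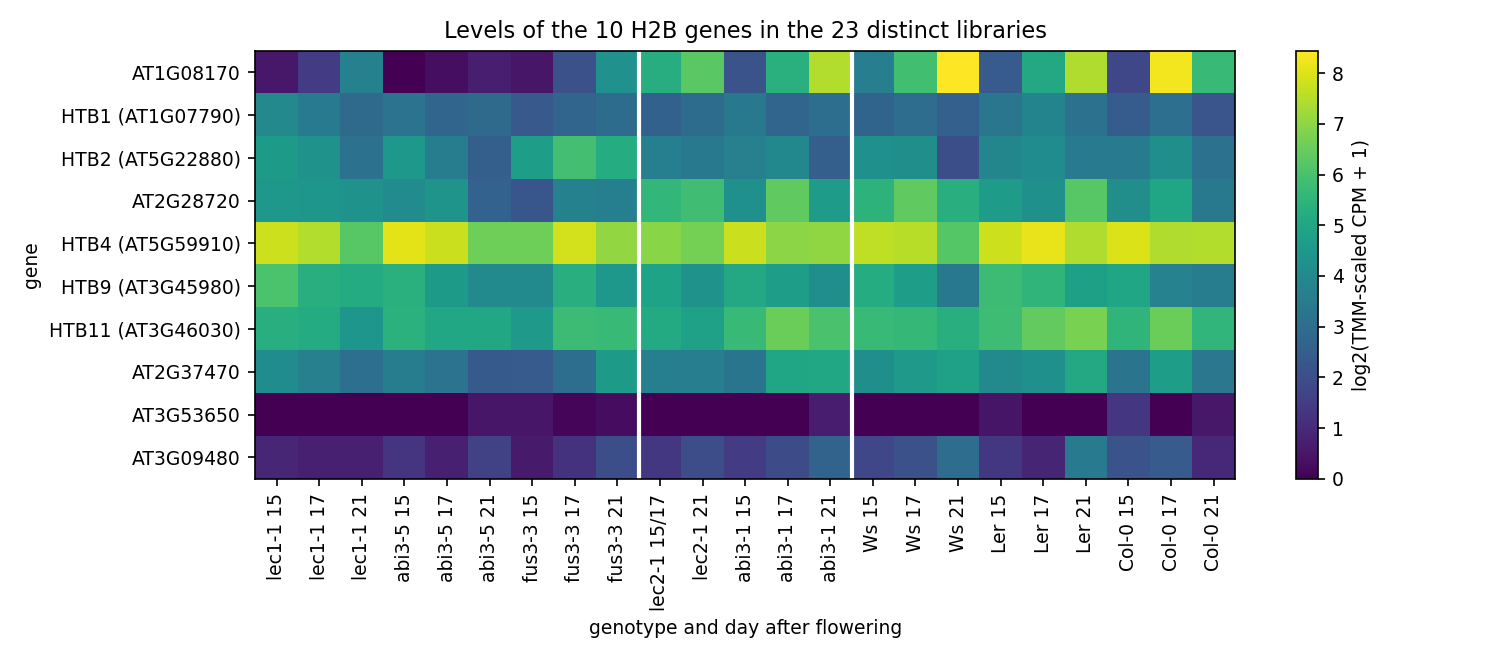
Levels of the 10 H2B genes as log2(TMM-scaled CPM + 1) in the 23 distinct libraries, with intolerant mutants left, tolerant mutants in the middle and wild types right, separated by white lines. AT1G08170 spans the widest range, from 0 to 347 CPM, and HTB4 is bright throughout at 72.9 to 283 CPM.

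From 15 to 21 DAF in Ws and Ler, AT1G08170 rose and HTB9 fell, and the remaining members did not pass the test. AT1G08170 rose by 4.99 on the log2 scale (SE 0.50; edgeR quasi-likelihood test, adjusted p = 6.8e-05), higher at 21 DAF in both ecotypes. The same Ws and Ler libraries were the references in the contrast that chose the gene. HTB9 was at 36.5, 25.3 and 9.67 CPM in Ws and at 54.7, 44.8 and 26.8 CPM in Ler at 15, 17 and 21 DAF. In both ecotypes each later day was lower, and their 21 DAF values lie below both 15 DAF values. HTB9 fell by 1.57 on the log2 scale (SE 0.45, adjusted p = 0.0247); scaled by library totals the value was -0.81 (adjusted p = 0.236), and the call was also lost without Ws at 15 or 21 DAF or Ler at 15 DAF.

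The 2 of 9 tested members called compare with 21.4% of all 11314 genes tested, 7.07% called higher and 14.4% called lower, so the number of calls is near the background. The other 8 tested members had a median log2 change of -0.05, against -0.02 over all genes. HTB2 was at 17.9, 17.5 and 3.04 CPM in Ws and 13.8, 16.3 and 9.93 CPM in Ler (log2 -1.53, adjusted p = 0.0847). HTB4 had a log2 change of -1.03 (adjusted p = 0.12). AT3G09480 was at 2.47, 3.25 and 7.18 CPM in Ws and 1.57, 0.814 and 10.4 CPM in Ler (adjusted p = 0.102). With the Col-0 libraries added as labelled no gene passed, and AT1G08170 had a log2 change of 4.96 (adjusted p = 0.216).

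AT1G08170 also rose in the intolerant seeds. Over lec1-1 and abi3-5 together it rose by 4.57 on the log2 scale between 15 and 21 DAF (SE 0.74; edgeR, adjusted p = 0.00361). It was the 1 member of 9 called in that comparison, in which 3.23% of 15006 genes were called and 0.526% were called higher. The rise rests mainly on lec1-1, with 3, 8 and 53 counts, since abi3-5 had 4 counts in all, and the call was lost without lec1-1 at 15 DAF (log2 4.34, adjusted p = 0.348) or at 21 DAF (log2 3.42, adjusted p = 0.174). In fus3-3, outside this fit, the counts were 4, 31 and 90.

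The change over days in lec1-1 and abi3-5 minus that in Ws and Ler was -0.54 for AT1G08170 on the log2 scale (SE 1.56; edgeR, adjusted p = 0.931). The interval of 2 SE runs from -3.67 to 2.59, and differences in slope of several-fold in either direction lie within it. No member was called in this comparison by edgeR or by DESeq2, where 0.573% of all genes were called by edgeR, and 1 of 9 had an unadjusted p under 0.05, against 2099 of 15006 genes, so that count is near the background too.

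The member was AT2G37470, named after its values were seen and given as a description. It was at 16.3, 11.8 and 7.55 CPM in lec1-1 and 11.1, 8.25 and 4.21 CPM in abi3-5 at 15, 17 and 21 DAF, against 17.3, 22.7 and 27.3 CPM in Ws and 15.3, 17.9 and 33.3 CPM in Ler. Each later day was lower in both mutants and higher in both wild types. The difference was -2.12 on the log2 scale (SE 0.61; edgeR, adjusted p = 0.129), and its adjusted p ranged from 0.087 to 0.918 over the alternatives. In fus3-3 AT2G37470 was at 4.34, 7.22 and 23.3 CPM, the opposite order to lec1-1 and abi3-5.

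**Figure D4:**
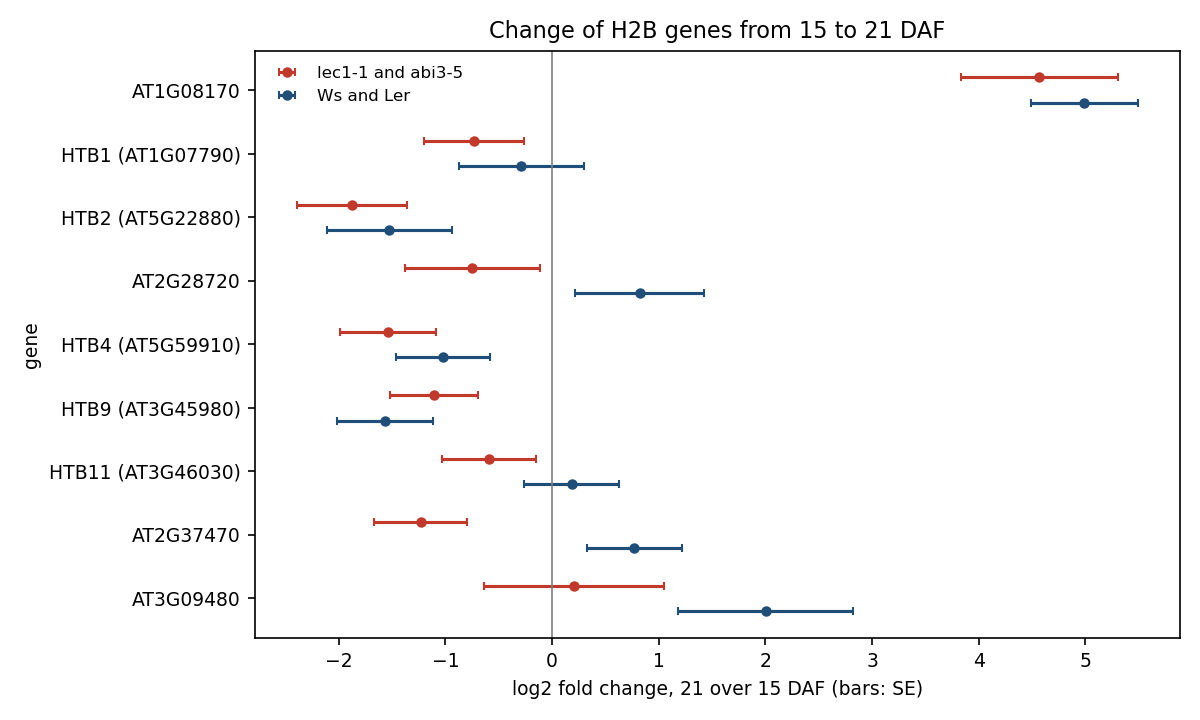
Log2 fold change from 15 to 21 DAF of the 9 tested H2B genes. Red points are lec1-1 and abi3-5, and blue points are Ws and Ler. Bars are SE derived from the edgeR quasi-likelihood test. AT1G08170 lies at 4.57 and 4.99, far right of the other members in both.

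In the intolerant mutants the other 8 tested H2B genes lay closer to their wild types than AT1G08170, which the rule chose by this contrast. Their median log2 fold change was -0.24 in lec1-1 against Ws, -0.95 in abi3-5 against Ler and -0.37 in fus3-3 against Col-0, beside 0.03, 0.05 and 0.02 over all genes. In lec1-1, 2 of 9 tested members passed the threshold, beside 23.7% of all genes; in abi3-5 1 of 9, beside 7.99%; and in fus3-3 2 of 9, beside 19%. AT1G08170 is among them each time, and nothing is read from these counts because the rule used the contrast.

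AT3G09480 was at 0.890, 0.666 and 0.687 CPM in lec1-1 at 15, 17 and 21 DAF, against 2.47, 3.25 and 7.18 CPM in Ws (log2 -2.28, SE 0.75). HTB2 was at 25.5, 59.0 and 36.0 CPM in fus3-3, against 10.5, 17.3 and 7.82 CPM in Col-0 (log2 1.85, SE 0.47). The AT3G09480 values rest on 6, 3 and 3 counts in lec1-1, near the floor, against 4, 5 and 26 counts in Ws. Its raw counts thus overlap, and the values of both genes are a description. AT2G28720 had log2 fold changes of -1.31, -1.63 and -1.07 in lec1-1, abi3-5 and fus3-3, and HTB11, AT2G37470 and AT3G09480 also had negative values in all 3.

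HTB9 was at 65.1, 39.1 and 35.5 CPM in lec1-1, against 36.5, 25.3 and 9.67 CPM in Ws (log2 1.08, SE 0.39), but its log2 fold change in abi3-5 against Ler was -0.71 (SE 0.39). Scaling by library totals raises the median of all genes by 1.21 in lec1-1, 1.49 in abi3-5 and 1.14 in fus3-3. With it HTB1, HTB2, HTB4 and HTB9 pass as higher in lec1-1, so the directions of the members other than AT1G08170 are relative to the TMM scale.

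**Figure D5:**
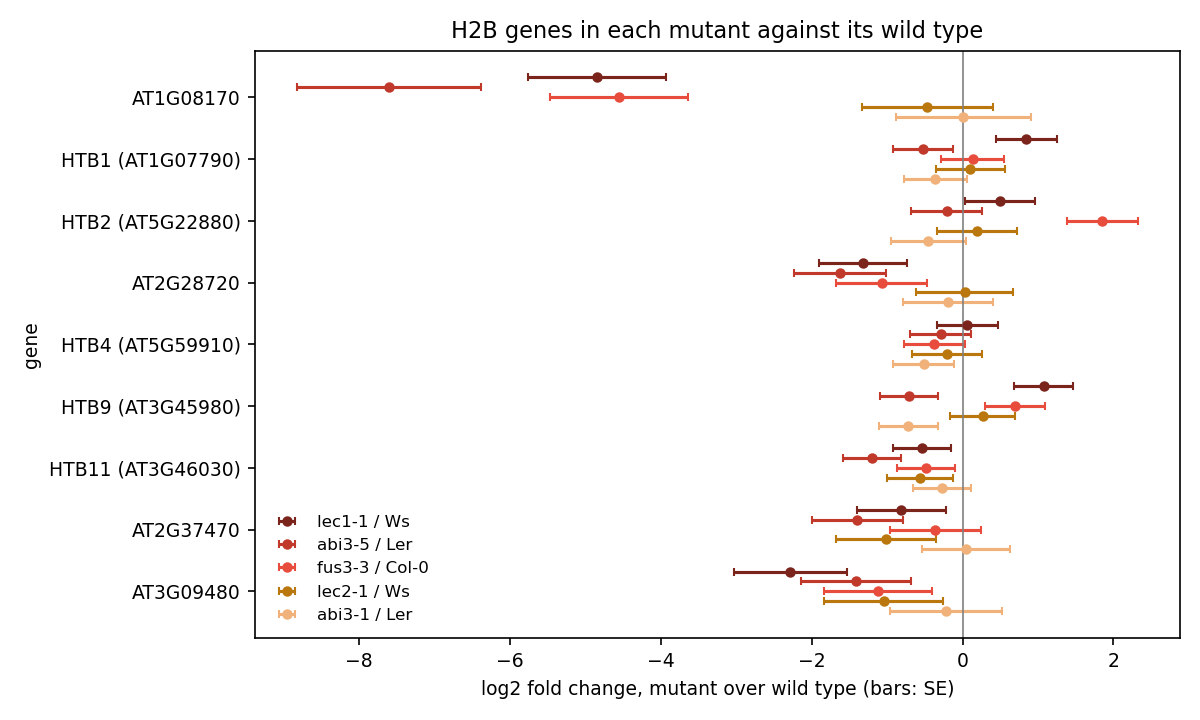
Log2 fold change of the 9 tested H2B genes in each mutant over its wild type, with red points for lec1-1, fus3-3 and abi3-5 (intolerant) and orange points for lec2-1 and abi3-1; bars are SE. AT1G08170 lies between -7.60 and -4.56 in the intolerant mutants and at -0.47 and 0.01 in the tolerant ones.

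In the tolerant mutants no H2B gene passed the test. In lec2-1 against Ws, 0 of 9 tested members were called by edgeR or by DESeq2 beside 1.88% of all genes called by edgeR, and 0 had an unadjusted p under 0.05, beside 1491 of 16085 genes; the furthest from 0 was AT3G09480 at -1.05 (SE 0.78). In abi3-1 against Ler, 0 of 9 were called by either tool, beside 0.00622% of all genes by edgeR, and 0 had an unadjusted p under 0.05, beside 269 of 16085 genes; the furthest was HTB9 at -0.72 (SE 0.39). The medians of the 8 members other than AT1G08170 were -0.09 and -0.32, beside -0.01 and -0.01 over all genes.

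Genes of the other histones were called in both directions over the same days, beside the 7.07% of all genes called higher and 14.4% called lower. In Ws and Ler from 15 to 21 DAF, 1 of 10 tested H2A genes rose (HTA13, log2 3.37, adjusted p = 0.0039), 0 of 7 H3 genes changed and 1 of 7 H4 genes fell (HIS4, log2 -2.56, adjusted p = 0.0137). Of the 3 linker histone H1 genes, HIS1-3, known to be induced by drought and abscisic acid, rose by 2.85 on the log2 scale (adjusted p = 0.0012) and AT2G30620 fell by 2.88 (adjusted p = 0.012). HIS1-3 was at 14.8, 21.4 and 68.5 CPM in Ws and at 22.0, 61.9 and 280 CPM in Ler. HIS1-3 thus climbed over the same days as AT1G08170, but it was not low in lec1-1, where it was at 197, 244 and 575 CPM.

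Genes of DNA replication were higher in lec1-1 than in Ws for 8 of 12 tested and lower for 0 (median log2 4.14), beside 14.5% of all genes higher. The same list had 4 of 12 higher in fus3-3 against Col-0 (median log2 3.03) and 1 of 12 higher in abi3-5 against Ler (median log2 3.07). In both 0 were lower, beside 10.3% and 4.24% of all genes higher. In the fit of Ws and Ler alone, 1 of the 12 passed the filter on low counts. In Ws, 5 of the 12 had 0 counts in every library. Most of the list thus entered the genotype fit through other libraries. Genes so low in the wild types could hardly be called lower, so nothing is read from the counts of 0 lower. PCNA2, a sliding clamp of DNA polymerase, was at 10.5, 13.8 and 9.61 CPM in lec1-1, against 1.24, 0.650 and 0.276 CPM in Ws (log2 4.09, adjusted p = 0.0017). These Ws values lie below the levels of 3 counts there, 1.86, 1.95 and 0.829 CPM, so the size of the difference is uncertain. Of the H2B ubiquitination genes 0 of 6 were called in any comparison, by edgeR. The share of all genes called ran from 0.00622% in abi3-1 against Ler to 23.7% in lec1-1 against Ws. With 6 genes, nothing is read from this count. Of the histone chaperones 3 of 9 were higher in lec1-1 and 2 of 9 in fus3-3, beside the same 14.5% and 10.3% of all genes, among them NAP1;3 (log2 1.82 and 1.66, adjusted p = 0.0144 and 0.0255) of the family that carries H2A and H2B.

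Among maturation regulators, ABI5, a factor that binds the abscisic acid response element, rose from 15 to 21 DAF in Ws and Ler (log2 2.63, adjusted p = 0.0013) and in lec1-1 and abi3-5 (log2 1.90, adjusted p = 0.0341). FUS3 fell by 4.92 on the log2 scale in Ws and Ler (adjusted p = 0.000269) and fell by 5.33 in lec1-1 and abi3-5 (adjusted p = 0.0079). ABI3 was lower in lec1-1 than in Ws (log2 -1.79, adjusted p = 0.0138) and lower in fus3-3 than in Col-0 (log2 -1.60, adjusted p = 0.0286).

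Markers of other cells were checked beside these results. The 4 sperm cell genes were at 0 in all libraries but those of lec1-1, where their sum reached 0.222 CPM, and the 6 early endosperm genes summed to at most 1.73 CPM. The 7 seed coat genes summed to 166 to 207 CPM in lec1-1, 103 to 390 in abi3-5 and 220 to 418 in fus3-3, against 179 to 201 in Ws, 128 to 167 in Ler and 303 to 607 in Col-0. The part of seed coat tissue in the H2B values was not tested.

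The genes most like AT1G08170 across the 23 libraries, by Pearson r of log2(CPM + 1) among 10439 genes, were ATECP31, a late embryogenesis abundant protein (r = 0.980), AT5G05320, annotated as an oxidoreductase (0.974), AT2G25625 (0.968), AT5G54300 (0.965), UGT72E1, a glucosyltransferase (0.961), and GolS2, which makes galactinol (0.959). The points share libraries, depth and scaling, and r is given as a description. ATECP31 was at 6.08, 26.4 and 190 CPM in lec1-1, against 132, 401 and 2924 CPM in Ws. Most unlike it were AT3G27230 (-0.938), AT4G35850 (-0.930) and AT2G26440 (-0.923).

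Of the H2B genes themselves, AT2G37470 (r = 0.717), AT2G28720 (0.596) and HTB11 (0.492) had the highest values, which lie at percentiles 91.3, 84.3 and 78.0 of all genes ranked. HTB1 (-0.143), HTB4 (-0.337), HTB2 (-0.393) and HTB9 (-0.511) had negative values, and AT3G09480 and AT3G53650 had too few counts to be ranked. In the genome AT1G08170 has none of the other H2B members and none of the listed H2A, H3, H4 and H1 genes within 20000 bases. Genes outside these lists were not searched. AT2G28720 lies 1537 bases from the H4 gene HIS4, and HTB9 and HTB11 lie 15371 bases apart.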

How the data were processed

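RNA of developing seeds was sequenced as barcoded SOLiD libraries after in vitro transcription, from RNA pooled to 1 sample per genotype and day, per the labels' protocols. The authors deposited raw counts per locus, made against TAIR10 per the submitters' processing notes; aligner and counter are not given in the sources used here. The authors' second table, the counts times 1 constant per library (edgeR, per the submitters' processing notes), was not used. Counts were filtered with filterByExpr (minimum count 10), scaled by TMM and tested with edgeR 4.0.16 in R 4.3.3, with genotype and day as factors, calling genes at a Benjamini-Hochberg adjusted p under 0.05 over all genes tested. The genotype contrasts used all 23 distinct libraries, with the doubled lec2-1 library weighted 0.5 on each of its days; the day contrasts used Ws and Ler, with lec1-1 and abi3-5 added for the second. Levels are TMM-scaled CPM, log levels with a pseudocount of 1. Each SE was derived from the edgeR test, as the absolute log2 fold change divided by the square root of the F statistic. Intervals and floors (3 counts) cover counting error only. Nothing in the labels pairs libraries beyond the day.

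Named genes are the members, the maturation regulators, the 6 genes most and the 3 least like AT1G08170 with a mean of at least 20 counts, and up to 3 genes per list by adjusted p. The members and lists were chosen with earlier results of these data known. Alternatives were RLE and library-total scaling, no filter, DESeq2 1.42.0, other placements of the doubled and the Col-0 libraries, and each library left out. Sequences are from RefSeq TAIR10.1. The scripts were tested on simulated counts.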

Additional observations from a re-analysis of the deposited data

How the results depend on the processing

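Most results kept their direction and side of the threshold. For AT1G08170 in lec2-1 against Ws, the log2 value of -0.47 became 0.093 with library totals and 0.91 with the doubled lec2-1 library placed at 15 DAF, against -1.72 with it at 17 DAF, and ran from -1.99 (without that library) to 0.38 (without lec2-1 at 21 DAF) with single libraries left out; no setting called it. In abi3-1 against Ler, 0.01 became -0.0067 with RLE scaling and -0.018 with DESeq2, and ran from -0.41 to 0.41 with libraries left out. For 21 against 15 DAF in Ws and Ler, 2 members were called, against 4 with library totals, 0 with Col-0 as labelled (AT1G08170 4.96) and 1 to 4 with libraries left out. For the same days in lec1-1 and abi3-5, 1 member was called, against 2 with no filter or DESeq2, 0 with fus3-3 and Col-0 added as labelled (AT1G08170 4.94, adjusted p = 0.0783) and 0 to 2 with libraries left out, where AT1G08170 ran from 3.42 to 4.70. In lec1-1 against Ws, AT1G08170 was at -3.79 with library totals. Its value in fus3-3 against Col-0 ran from -5.35 to -1.85 with libraries left out. The cause of these shifts was not tested. An alternative chosen after seeing the data, fus3-3 and Col-0 added with the Col-0 days 17 and 21 exchanged, called 1129 genes for the days in intolerant mutants, against 485, and 581 for the difference in change, against 86. Library totals called 6561 genes in lec1-1 (3808), 8029 in abi3-5 (1285), 5903 in fus3-3 (3057) and 757 in lec2-1 (303). With Col-0 as labelled, 0 genes were called over days in the wild types, against 2426, and 4449 with its days exchanged. The difference in change called 639 genes with no filter, 286 with DESeq2 and 0 with fus3-3 and Col-0 added as labelled; the days in intolerant mutants called 1083 with no filter and 17 with those genotypes added. Exchanging the Col-0 days called 1939 genes in abi3-5, leaving both libraries out called 460 in fus3-3, and abi3-1 against Ler had 1 call, 2 with DESeq2 and 0 with library totals. With single libraries left out, calls ran from 55 to 79 in lec2-1, 0 to 1 in abi3-1, 1889 to 2775 in lec1-1, 451 to 1501 in abi3-5, 1159 to 3089 in fus3-3, 1037 to 3924 over days in Ws and Ler, 208 to 765 over days in lec1-1 and abi3-5 and 4 to 543 for the difference in change. Among the other H2B genes, library totals called 4 in lec1-1 (1), 1 in abi3-5 (0) and 2 in fus3-3 (1), and leaving out Col-0 of 17 and 21 DAF left 0 in fus3-3. No paired analysis was possible because the labels give no replicate numbers, and the day is already a term of every fit. Depth limits AT3G53650, with 14 counts, and AT1G08170 in abi3-5, with 4.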
